A study of Mus musculus with 3 samples.

Results

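The nuclear-encoded subunits of the respiratory chain were followed in CD45+F4/80+7AAD- cells sorted from the infarct zone (IZ) and border zone (BZ) of hearts of C57BL/6 mice. The 99 genes described here are those of 54752 genes in the 3 count tables whose symbols start with Ndufa, Ndufb, Ndufc, Ndufs, Ndufv, Sdha, Sdhb, Sdhc, Sdhd, Uqcr, Cox4i, Cox5, Cox6, Cox7, Cox8 or Atp5, that carry no "-ps" in the symbol, and that reached 10 unique molecular identifiers (UMIs, 1 per captured RNA molecule) over the kept cells. Of 111 symbols with these prefixes, 9 carry "-ps" and 3 stayed under the limit, namely Cox7b2 and Cox8c at 0 UMIs and Ndufa11b at 4. The member nearest to the limit from above was Ndufs6b, with 30 UMIs. Beside their symbols, the members were chosen by this UMI total alone.

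Complexes I to IV pass electrons from NADH and succinate to oxygen, all of them but complex II pump protons across the inner mitochondrial membrane, and complex V uses the proton gradient to make ATP. Most subunits are encoded in the nucleus and imported, whereas a small set of core subunits of complexes I, III, IV and V and both mitochondrial rRNAs are transcribed inside mitochondria (the mt- genes). Macrophages are known to move between oxidative and glycolytic metabolism as they change state, and cardiomyocytes, the neighbours of these cells, are among the most oxidative cells of the body.

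Each of 3 groups gave 1 single-cell library of mice operated on at P10 and examined 3 days later, at P13. P10-sham_vehicle hearts had the chest operation without ligation, P10-MI_vehicle hearts had the left anterior descending coronary artery ligated (myocardial infarction, MI), and both received vehicle. P10-MI_SB225002 hearts had MI and received SB225002, an antagonist of the chemokine receptor CXCR2. Zones of several hearts were pooled before sorting, and mice of both sexes were used. With 1 library per group no test was possible, p-values are not given, and every interval is a 95% interval that covers counting error only, not the spread between animals.

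Cells with more than 500 and fewer than 30000 UMIs, more than 500 and fewer than 5000 genes, and an mt- share under 10% were kept: 2351 in P10-sham_vehicle, 3453 in P10-MI_vehicle and 4744 in P10-MI_SB225002, with medians of 8521, 6400 and 5654 UMIs. The sort did not leave macrophages and monocytes alone. Gating on marker genes gave 2032, 2399 and 3130 C1q-positive macrophages (at least 0.2% of UMIs from C1qa, C1qb and C1qc and no other lineage). In these, the further macrophage genes Adgre1, Csf1r, Mrc1, Cd68 and Fcrls together held 4773, 4230 and 3437 UMIs per 1000000. The next highest gated type, Ly6c-high monocytes, held 849, 893 and 1056. The gating also gave 12, 197 and 275 Ly6c-high monocytes, 21, 81 and 145 neutrophils, 73, 205 and 156 fibroblasts, 36, 60 and 173 endothelial cells and 20, 58 and 41 B cells, although the last 3 are no CD45+F4/80+ cells in the textbook sense. The neutrophil gate uses S100a8, S100a9, Lcn2 and Cd177 among others. The paper reports enhancer signals at these genes in its S100a9+Ly6c+ monocytes. Whether the gate takes in such monocytes was not tested. Cells with markers of several types (120, 221 and 307) or of none (16, 190 and 476) entered only the sums over all kept cells. In all, 53.8%, 51.5% and 38.7% of kept cells carry a barcode that also occurs in another library.

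The summed nuclear-encoded genes differed little between the 3 libraries in macrophages. They made up 2.50% (95% counting interval 2.50 to 2.51) of macrophage UMIs in P10-sham_vehicle, 2.43% (2.42 to 2.44) in P10-MI_vehicle and 2.53% (2.52 to 2.53) in P10-MI_SB225002. The P10-MI_vehicle value is the lowest and the other two lie close together. On the log2 scale, P10-MI_vehicle over P10-sham_vehicle was -0.04 and P10-MI_SB225002 over P10-MI_vehicle was 0.06, which is 1.04-fold. Within the macrophage class, markers of neutrophils stood at 790, 2441 and 2613 CPM, those of Ly6c-high monocytes at 102, 396 and 557 CPM and erythroid genes at 116, 14.5 and 12.6 CPM. The class also differed in make-up, with 35.5%, 34.8% and 18.2% of its cells high in resident markers and 0.640%, 5.59% and 21.2% high in lipid-associated markers. The part of these differences in the members' values was not tested. Over all kept cells the same ratios of the summed genes were -0.08 and 0.07.

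The mt- transcripts moved apart from them. The 13 mt- mRNAs together made up 1.39%, 1.22% and 1.31% of macrophage UMIs, in the order P10-sham_vehicle, P10-MI_vehicle, P10-MI_SB225002 in which values of the libraries are given throughout. The 2 mt- rRNAs, mt-Rnr1 and mt-Rnr2, made up 3.48%, 3.13% and 2.12%. P10-MI_vehicle was therefore below P10-sham_vehicle in both classes, by a log2 ratio of -0.18 for the mRNAs and -0.15 for the rRNAs. In P10-MI_SB225002 over P10-MI_vehicle the classes went opposite ways, with 0.10 for the mRNAs and -0.56 for the rRNAs. All 37 mt- genes together gave -0.16 and -0.34, and the second value is the sum of these opposite parts. The cell filter acts on this sum directly: the 10% limit alone removed 21.9%, 14.9% and 10.6% of the cells that passed the other limits, and without it the ratios of all mt- genes were -0.18 and -0.46. With a limit of 5% they were -0.090 and -0.17.

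**Figure D1:**
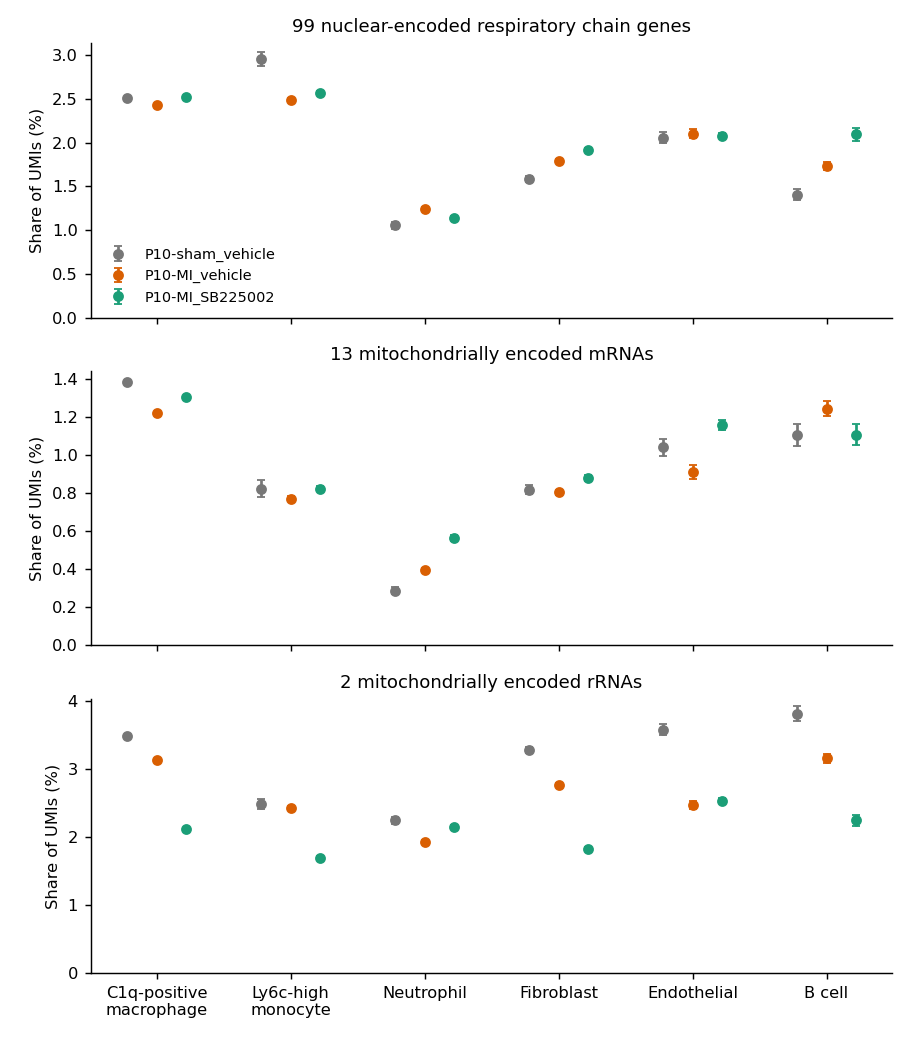
Share of UMIs (%) of the 99 nuclear-encoded respiratory chain genes, the 13 mt- mRNAs and the 2 mt- rRNAs, by marker-gated cell type and library, with 95% counting intervals (1 library per group). In macrophages the nuclear-encoded share stays between 2.43% and 2.53% while the mt- rRNA share goes from 3.48% in P10-sham_vehicle to 2.12% in P10-MI_SB225002.

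The first comparison asks what infarction at P10 did to these genes in macrophages. Of the 98 members with at least 10 UMIs over both libraries, 1 was higher in P10-MI_vehicle by a log2 ratio of more than 0.32, the limit used for every count of higher and lower genes unless another is named (all genes without mt-: 16.1%), and 5 were lower (all genes: 16.3%). At 1.5-fold, 1 was higher and 3 were lower (all genes: 10.4% and 7.22%). The median log2 ratio of the members was -0.07, beside -0.05 for all 15658 genes so tested. Genes with few UMIs scatter more, and among genes with at least 1000 UMIs the shares of all genes past the limit were 3.80% and 4.56%, beside 0 and 3 of 82 members. In cells with no UMI of the dividing genes, 11 members were lower in place of 5, and in cells thinned to 1000 UMIs 12 were. The sole member that was higher, Cox6c2, is a gene copy that may share reads with Cox6c and had 14 UMIs in P10-sham_vehicle and 44 in P10-MI_vehicle.

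Among members with at least 100 UMIs over both libraries, the lowest of this comparison came from the ATP synthase and from the accessory subunits of complex I. Cox4i2 was lower still, at -0.94, on 58 and 28 UMIs. Atp5g2, 1 of 3 genes for the same membrane subunit c, had 58.0 CPM (UMIs per 1000000 UMIs of the gated cells) in P10-sham_vehicle, 37.8 in P10-MI_vehicle and 35.8 in P10-MI_SB225002. Both MI libraries are thus below the sham library, with a log2 ratio of -0.62 (-0.76 to -0.48) for P10-MI_vehicle over P10-sham_vehicle. Its partners Atp5g1 and Atp5g3 encode the same mature protein and gave -0.27 each, with P10-MI_SB225002 back at 371 and 338 CPM beside 353 and 320 in P10-sham_vehicle. Atp5l, subunit g, went from 375 to 304 and then 276 CPM. Ndufa12 (127, 97.8 and 121 CPM) and Ndufb4 (103, 81.2 and 71.9 CPM), both accessory subunits of complex I, gave -0.38 (-0.47 to -0.29) and -0.35 (-0.45 to -0.25). Atp5o was at -0.64 on 223 and 133 UMIs, but this symbol occurs a second time as Atp5o.1, which holds 6436 and 5232 UMIs and gave -0.19, so how reads were divided between the 2 entries is uncertain. With the same minimum, the highest values belonged to Atp5k (0.26, subunit e of the ATP synthase), Ndufa3 (0.25), Cox6b2 (0.23), Ndufb4c (0.22) and Ndufa6 (0.20), and the intervals of Cox6b2 and Ndufb4c include 0.

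None of the core enzymes passed the limit in this comparison, although some of their medians lay below that of all members. The 7 core subunits of complex I that are encoded in the nucleus and carry its flavin and iron-sulfur centres had a median of -0.10, with Ndufs3 at -0.27. Medians were also below 0 in the 4 subunits of succinate dehydrogenase (complex II), with a median of -0.14, the 8 members of complex III with -0.04 and the 12 of complex IV with -0.02. Of the 13 mt- mRNAs, 0 were higher and 2 lower past the limit (all genes without mt-: 16.1% and 16.3%). The lower ones were mt-Co2 with 182 and 137 CPM (-0.41) and mt-Atp8 with 60.0 and 47.2 CPM (-0.35). The ratio of mt-Nd1, at 3991 and 3436 CPM, was -0.22, and the intervals of mt-Co1, mt-Nd3, mt-Nd4l and mt-Nd6 include 0.

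The second comparison asks what CXCR2 antagonism did after MI, and here the members spread more widely. Of 99 members tested, 27 were higher in P10-MI_SB225002 (all genes without mt-: 17.5%) and 8 were lower (all genes: 25.3%). The lower members include Cox8b, Cox7a1, Cox6a2 and Cox6b2, isoforms known from heart and muscle or, for Cox6b2, from testis. The median of the members was 0.13, beside -0.06 for all 15728 genes. At 1.5-fold, 3 members were higher and 3 lower (all genes: 7.20% and 12.4%). Among genes with at least 1000 UMIs, 23 of 81 members were higher and 4 lower, beside 13.3% and 15.6% of all genes. With an mt- limit of 5%, 17 members were higher in place of 27.

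**Figure D2:**
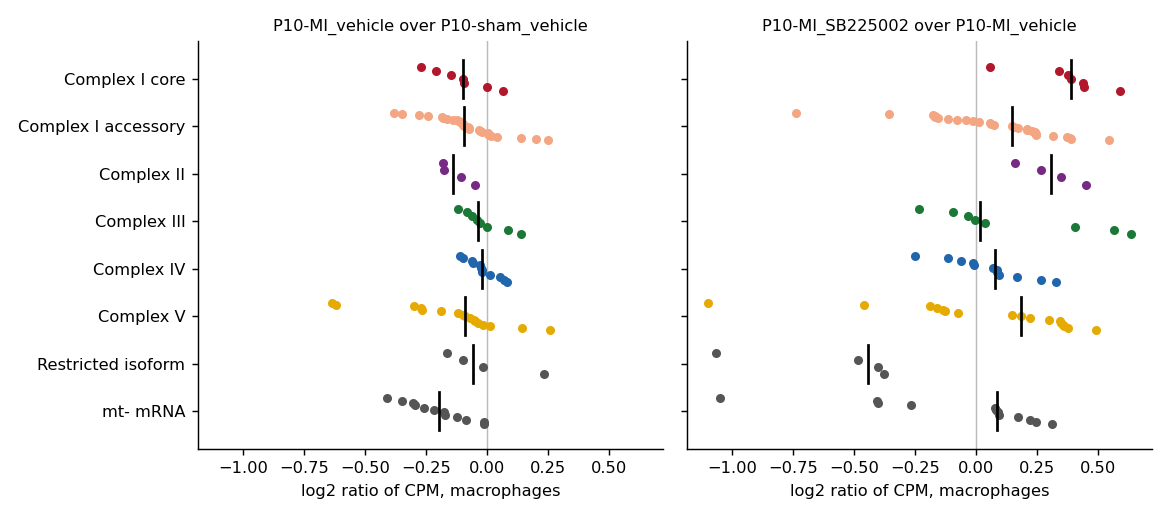
log2 ratio of CPM in C1q-positive macrophages for each member with at least 100 UMIs over both libraries (points), by complex, and for the mt- mRNAs, with black bars at the median. In P10-MI_SB225002 over P10-MI_vehicle the complex I core subunits all lie above 0, between 0.06 and 0.59, whereas complex V runs from -1.10 to 0.49.

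Members past the limit on the higher side came from all 5 complexes. In complex I, 6 of the 7 core subunits were higher and their median was 0.39. Ndufv1, which binds NADH and the flavin, had 42.3 CPM in P10-sham_vehicle, 42.3 in P10-MI_vehicle and 63.5 in P10-MI_SB225002. The sham and MI_vehicle libraries are equal there and the third stands above both, with a log2 ratio of 0.59 (0.46 to 0.72) over P10-MI_vehicle. Among the accessory subunits, Ndufa9 was the highest, with 59.7, 52.6 and 76.6 CPM (0.54, 0.43 to 0.66). Ndufs1, the largest core subunit, was the exception, with 37.6, 35.1 and 36.5 CPM and a ratio of 0.06 (-0.10 to 0.21).

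Complex II gave 2 of 4 subunits past the limit. Sdhb, the iron-sulfur subunit, had 188, 165 and 226 CPM, a ratio of 0.45 (0.38 to 0.52) for SB225002 over vehicle. Sdha, the flavoprotein to which succinate binds, had 94.5, 91.3 and 102 CPM and a ratio of 0.16 (0.06 to 0.25). In complex III the 3 larger subunits were higher, among them the core protein Uqcrc1 with 113, 104 and 162 CPM (0.63, 0.55 to 0.72) and the Rieske iron-sulfur protein Uqcrfs1 with 80.7, 88.8 and 131 CPM (0.57, 0.48 to 0.66). Its small subunits were not: Uqcrb gave -0.04, Uqcrh -0.01 and Uqcr11 -0.24. In complex IV only Cox5a passed the limit (430 to 539 CPM, 0.33), Cox4i1, the member with the most UMIs, gave 0.27 (946, 933 and 1122 CPM) and Cox7c gave -0.25.

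The ATP synthase divided. Its catalytic beta subunit Atp5b had 391, 367 and 515 CPM, a ratio of 0.49 (0.44 to 0.53), and the alpha subunit Atp5a1 had 324, 313 and 400 CPM, a ratio of 0.36. Other subunits were higher past the limit too, among them Atp5d and the subunit c genes Atp5g1 and Atp5g3. Some small subunits of the same complex went the other way. Atp5k had 430 CPM in P10-sham_vehicle, 514 in P10-MI_vehicle and 240 in P10-MI_SB225002, a ratio of -1.10 (-1.15 to -1.05), and Atp5mpl had 456, 503 and 366 CPM (-0.46). Atp5e, the epsilon subunit and the most abundant of complex V by UMIs, had 1032, 1020 and 895 CPM (-0.19). The accessory complex I subunit Ndufa3 followed the same order, with 342, 406 and 243 CPM (-0.74, -0.79 to -0.69). Atp5k, Atp5mpl and Ndufa3 are highest in P10-MI_vehicle and lowest in P10-MI_SB225002, and Atp5k has processed pseudogenes (Atp5k-ps2, 11 UMIs in kept cells) with which reads could be shared.

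The members' ratios went with the length of their transcripts. Median transcript length per gene was taken from GENCODE vM21. Of the 26 members under 600 nt with at least 100 UMIs over both libraries, 7 were lower in P10-MI_SB225002, 0 were higher, and the median was -0.11. Those 7 were Atp5k, Ndufa3, Ndufa6, Atp5mpl and the isoforms Cox8b, Cox7a1 and Cox6b2, which are known from other tissues. The part of free cardiomyocyte RNA in the heart isoforms Cox8b and Cox7a1 was not tested. Of the 38 members of 1000 nt or more, 17 were higher, 0 were lower, and the median was 0.30. The 32 members between these lengths had a median of 0.14. Across the 96 members the Spearman correlation of length and ratio was 0.53, and in P10-MI_vehicle over P10-sham_vehicle, across 95 members, it was -0.30. These are descriptions across genes that share the same libraries, and genes are not replicates.

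Other genes were set beside the members in bins of length. Among all other genes under 450 nt the median ratio was 0.33 in P10-MI_vehicle over P10-sham_vehicle and -0.30 in P10-MI_SB225002 over P10-MI_vehicle, beside -0.02 and -0.19 for the members of that length. From 2000 to 3000 nt other genes gave -0.06 and -0.02, and members -0.12 and 0.21. Ribosomal protein genes under 450 nt gave 0.30 and -0.91, and Rps29, a short member of that family, had 5501, 6674 and 2500 CPM in the 3 libraries. When each member's ratio was taken less the median of other genes of like length, 11 members were higher in P10-MI_SB225002 in place of 25 of the same 96, 8 were lower in either case, and the median was 0.11. Whether length itself, or another property of these libraries that goes with it, has a part in the members' ratios was not tested.

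**Figure D3:**
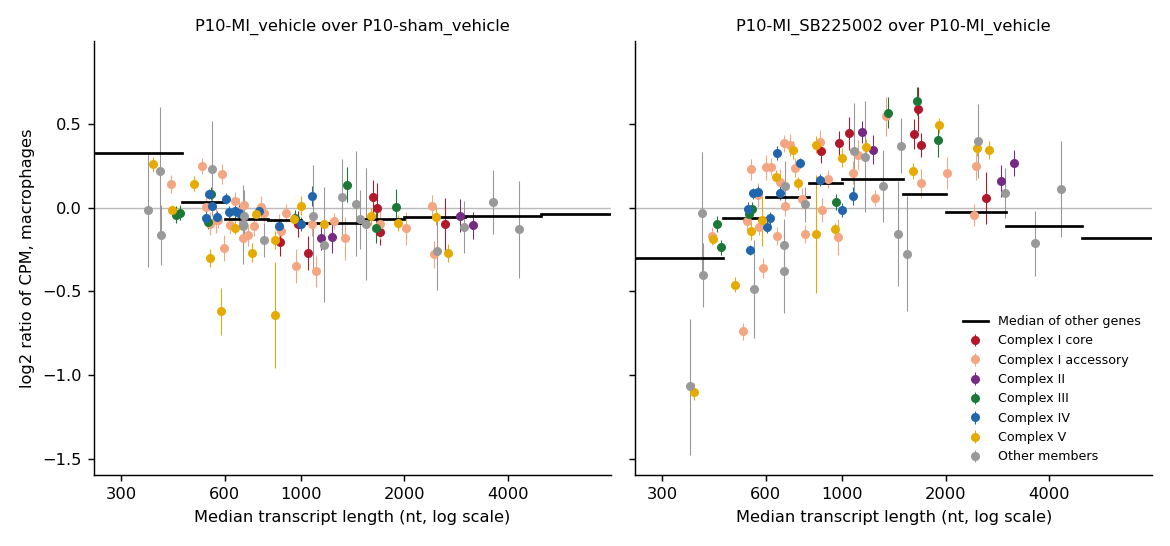
log2 ratio of CPM in C1q-positive macrophages against the median transcript length (nt, log axis) for members with at least 100 UMIs, coloured by complex, with 95% counting intervals. Black lines give the median of all other genes in each length bin. In P10-MI_SB225002 over P10-MI_vehicle the members under 600 nt have a median of -0.11 and those of 1000 nt or more a median of 0.30.

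The balance of short and long members differed between the libraries in every cell type gated. In macrophages, members under 600 nt held 1.67 UMIs per UMI of members of 1000 nt or more in P10-sham_vehicle, 1.80 in P10-MI_vehicle and 1.33 in P10-MI_SB225002. Ly6c-high monocytes gave 1.38, 1.71 and 1.22, neutrophils 1.60, 1.80 and 1.38, and fibroblasts 1.38, 1.68 and 1.28. Endothelial cells gave 1.66, 1.94 and 1.28, and B cells 1.40, 1.57 and 1.20. P10-MI_SB225002 was the lowest and P10-MI_vehicle the highest in all 6 types. A difference between animals and a difference between library preparations cannot be told apart here, since each group is 1 library.

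**Figure D4:**
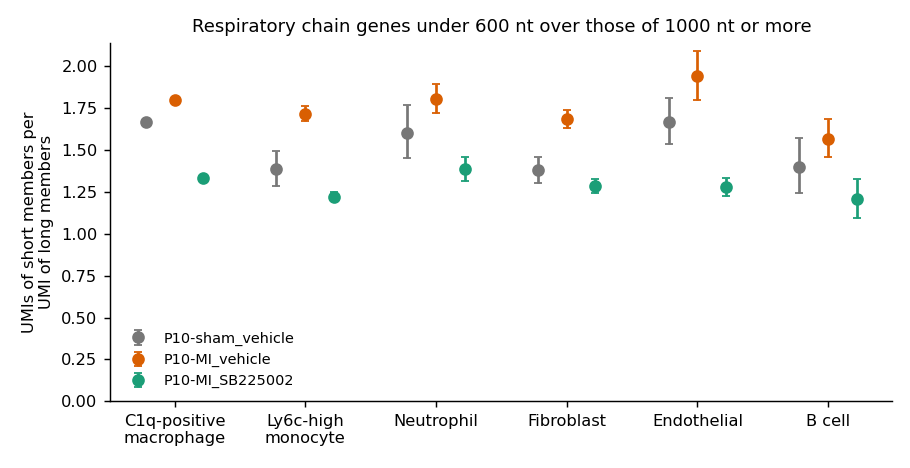
UMIs of respiratory chain genes under 600 nt per UMI of those of 1000 nt or more, by cell type and library, with 95% counting intervals. In each type the P10-MI_vehicle library has the highest value and the P10-MI_SB225002 library the lowest, as in macrophages with 1.80 and 1.33.

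Summed over their genes, the complex I core and complex II were higher in P10-MI_SB225002 than in P10-MI_vehicle in the other types as well. The summed complex I core gave log2 ratios of 0.32 (0.22 to 0.43) in Ly6c-high monocytes, 0.30 (0.07 to 0.53) in neutrophils, 0.26 (0.12 to 0.41) in fibroblasts, 0.42 (0.15 to 0.69) in endothelial cells and 0.37 (0.01 to 0.72) in B cells. Complex II gave between 0.26 and 0.55 in these types, with only the interval of B cells including 0. Single core subunits of complex I in neutrophils ran from -0.41 (Ndufs7, -0.96 to 0.12) to 0.88 (Ndufv1, 0.01 to 1.78). The median transcript length is 1623 nt in the complex I core and 2065.5 nt in complex II. The part of length in these ratios was not tested.

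Promoters of the members were searched for 4 motifs, because nuclear respiratory factor 1 (NRF1), ETS factors such as GABP, ERRalpha and YY1 are known regulators of respiratory chain genes. RefSeq promoters of GRCm38.p6, from 250 bases before to 50 after the start, were at hand for 77 of the 99 members. On either strand, the NRF1 motif, marked by the capitals in the sequences of this paragraph, stood in 21 of these 77 promoters (27.3%), beside 5.19% of 27025 genes. CCGGAAGT (ETS) stood in 5 of 77 (6.49%, all genes 4.31%), TCAAGGTCA (ERRalpha) in 2 (2.60%, all genes 0.466%) and the YY1 motif in 5 (6.49%, all genes 0.755%). The NRF1 motif was in 4 of 19 promoters of members higher in P10-MI_SB225002, in 2 of 6 of those lower and in 15 of 52 of the rest. They therefore stood before members of both directions. The NRF1 matches of the 6 members past the limit are given 5′ to 3′ on the gene's strand, in windows of 30 bases with the match in capitals.
Uqcrc1 (higher), chr9:108936643-108936672, plus strand: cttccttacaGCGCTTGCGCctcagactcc
Ndufa8 (higher), chr2:36049349-36049378, minus strand: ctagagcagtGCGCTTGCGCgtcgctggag
Sdhd (higher), chr9:50603909-50603938, minus strand: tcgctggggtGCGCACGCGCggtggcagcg
Atp5g3 (higher), chr2:73911295-73911324, minus strand: gagccgcaccGCGCTTGCGCgcccagcccc
Ndufa6 (lower), chr15:82354249-82354278, minus strand: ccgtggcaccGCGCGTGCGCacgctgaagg
Atp5k (lower), chr5:108434430-108434459, minus strand: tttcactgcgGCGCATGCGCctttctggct

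The matches of Ndufa8, Sdhd and Atp5k begin 30, 79 and 50 bases before the start, and those of Uqcrc1, Atp5g3 and Ndufa6 begin at bases 6, 13 and 24 of the transcript. A match is a run of letters and not a site shown to be bound. The regulators' own transcripts did not all move 1 way in macrophages. Nrf1 had 67.3, 60.2 and 57.1 CPM, Gabpa 32.1, 30.1 and 26.9, and Ppargc1b, a coactivator of these factors, 17.6, 14.0 and 10.4. Esrra, the gene of ERRalpha, had 26.3, 26.0 and 29.5 CPM, and Pprc1 had 17.1, 14.5 and 17.2. Both were higher in P10-MI_SB225002 than in P10-MI_vehicle. Of 11 genes of mitochondrial transcription and its regulators, 1 was higher in P10-MI_SB225002 over P10-MI_vehicle (all genes: 17.5%) and 2 were lower (all genes: 25.3%), among them Ppargc1a on 8 and 5 UMIs.

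Single mt- mRNAs parted in P10-MI_SB225002. mt-Nd4 had 2061, 1892 and 2206 CPM, mt-Cytb 3828, 3386 and 3806, and mt-Co3 149, 140 and 174. For these genes the P10-MI_vehicle library is the lowest, and the ratios for SB225002 over vehicle were 0.22, 0.17 and 0.31. mt-Co1 (459, 455 and 345 CPM) and mt-Nd5 (560, 454 and 343 CPM) were lowest in P10-MI_SB225002, with ratios of -0.40 and -0.41. mt-Atp8 had 60.0, 47.2 and 22.8 CPM (-1.05), and mt-Nd4l held only 19, 20 and 8 UMIs. In all, 8 of 13 mt- mRNAs had ratios above 0, but none of these passed the limit. Past the limit, 4 were lower, among them mt-Nd4l (all genes without mt-: 17.5% higher and 25.3% lower).

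Neighbouring pathways were described from lists beside the members. Of 27 electron carriers, carriers and channels of the mitochondrial membranes, assembly factors and further subunits, 10 were higher and 2 lower in P10-MI_SB225002 over P10-MI_vehicle in macrophages. Among them cytochrome c1 (Cyc1), a subunit of complex III that the prefixes do not take in, had 99.9, 88.3 and 129 CPM (0.54), cytochrome c (Cycs) had 195, 182 and 240 CPM (0.40), and Usmg5, a small subunit of the ATP synthase, had 404, 420 and 274 CPM (-0.62). Of 16 genes of the TCA cycle, 4 were higher and 1 lower, a share of higher genes near that of all genes (17.5% higher, 25.3% lower), with malate dehydrogenase Mdh2 at 0.68. Of 13 genes of glycolysis, 11 were higher and 1, hexokinase Hk2, was lower at -1.26, with a median of 0.61 that lies above the 0.13 of the respiratory chain. Most of these glycolysis genes have transcripts longer than 1000 nt, and members of 1000 nt or more had a median of 0.30. The part of length in this difference was not tested. In P10-MI_vehicle over P10-sham_vehicle the medians of the electron carrier, TCA cycle and glycolysis lists were -0.10, -0.04 and 0.16.

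Levels were then compared between cell types. The nuclear-encoded genes made up 1.05%, 1.24% and 1.14% of neutrophil UMIs, the lowest of the 6 types in each library, and the log2 ratio to macrophages of the same library was -1.25, -0.97 and -1.14. Fibroblasts had 1.58%, 1.79% and 1.91% and endothelial cells 2.05%, 2.10% and 2.08%. B cells had 1.40%, 1.73% and 2.09% on 20, 58 and 41 cells. Ly6c-high monocytes stood at 2.49% in P10-MI_vehicle and 2.57% in P10-MI_SB225002, at most 1.02-fold macrophages, and at 2.96% on only 12 cells in P10-sham_vehicle. In the gated neutrophils, the 11 neutrophil marker genes alone held 295124, 279510 and 237770 CPM, a large part of all UMIs. Their part in the low neutrophil shares and ratios was not tested.

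The mt- mRNAs did not follow the nuclear-encoded genes across types. Ly6c-high monocytes held 0.825%, 0.772% and 0.826% of UMIs in mt- mRNAs, a ratio to macrophages of -0.75, -0.66 and -0.66, although their nuclear-encoded share was like that of macrophages or above it. Per UMI of the nuclear-encoded genes, mt- mRNAs held 0.553, 0.503 and 0.518 UMIs in macrophages but 0.279, 0.310 and 0.322 in Ly6c-high monocytes. Markers of neutrophils stood at 37311, 14708 and 18789 CPM in the gated Ly6c-high monocytes, and their part in these values was not tested. In neutrophils mt- mRNAs made up 0.289%, 0.397% and 0.567% of UMIs, and in P10-MI_SB225002 over P10-MI_vehicle they were higher by a log2 ratio of 0.51 (0.46 to 0.57) while the nuclear-encoded genes were lower by a ratio of -0.12 (-0.15 to -0.08). The gated neutrophils of the 3 libraries had medians of 12411, 12868 and 5558 UMIs, so depth moved with that difference and its part was not tested. Without cells that share a barcode with another library, the ratio of the nuclear-encoded genes was 0.27, the opposite direction.

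Shares of both classes differed with depth inside each library. In the shallowest macrophages, of 500 to 2000 UMIs, the nuclear-encoded genes made up 2.43%, 2.28% and 2.15% of UMIs, with P10-MI_SB225002 the lowest. In those of 2000 to 4000 UMIs they made up 2.11%, 2.07% and 2.23%, and in those of 12000 to 30000 UMIs 2.69%, 2.69% and 2.73%. Between 4000 and 12000 UMIs the P10-MI_SB225002 library was above the other two in every bin, for example with 2.39% beside 2.21% and 2.15% at 4000 to 6000 UMIs. The mt- rRNAs made up 4.996%, 3.98% and 3.68% at 500 to 2000 UMIs, 5.54%, 4.67% and 3.38% at 2000 to 4000 UMIs and 2.69%, 2.06% and 1.19% at 12000 to 30000, and kept the order of the 3 libraries in every bin. The mt- mRNA share at 12000 to 30000 UMIs was 1.31%, 1.03% and 1.06%.

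**Figure D5:**
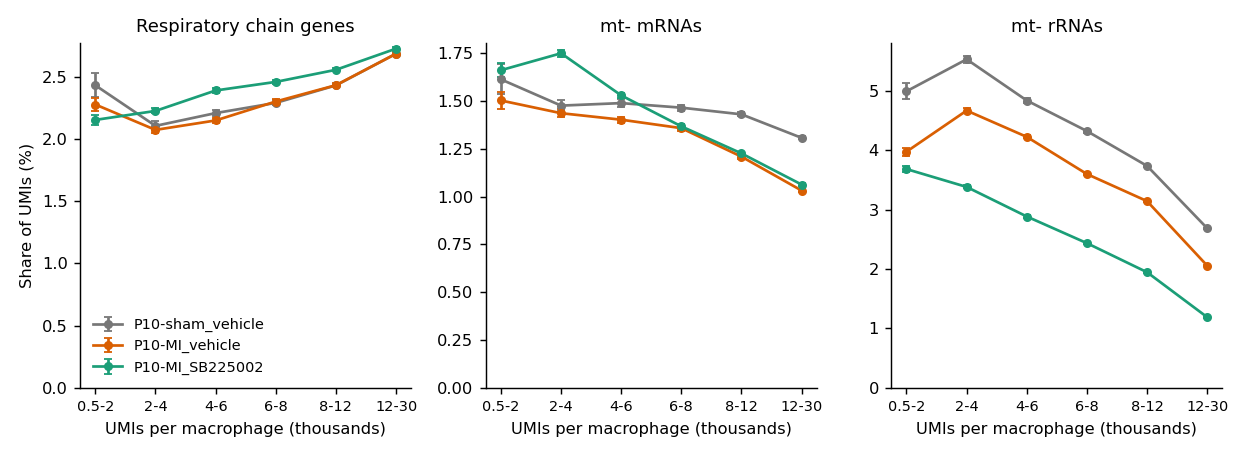
Share of macrophage UMIs (%) held by the respiratory chain genes, the mt- mRNAs and the mt- rRNAs in bins of UMIs per cell, by library, with 95% counting intervals. The nuclear-encoded share goes from 2.07% to 2.69% between the bin of 2000 to 4000 UMIs and the deepest bin in P10-MI_vehicle, and the mt- rRNA share from 4.67% to 2.06%.

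Macrophage states were cut from the summed share of a few markers and are therefore ranges rather than types. Resident-high cells (Lyve1, Folr2, Cd163, Timd4, Cbr2, Gas6) had nuclear-encoded shares of 2.52%, 2.37% and 2.63%. Lipid-associated-high cells (Gpnmb, Spp1, Trem2, Fabp5, Cd9, Lgals3) had 2.53% on 13 cells, 2.66% on 134 and 2.51% on 663. Arg1-high cells stood at 2.43% in P10-MI_vehicle and 2.56% in P10-MI_SB225002, and MHC class II-high cells at 2.33% and 2.56%. Against the other macrophages of the same library, the highest of these ratios was 1.10-fold, in lipid-associated-high cells of P10-MI_vehicle. Cells with at least 3 of 7 genes of cell division had 2.61%, 2.66% and 2.68%, log2 0.09, 0.18 and 0.14 above the other macrophages, and a median of 10800, 9547 and 8282 UMIs beside 6987, 5457 and 4322 in cells with none of the 7. Within bins of depth from 2000 UMIs on, the ratio of dividing cells to those with none ran from 0.01, in sham cells of 4000 to 6000 UMIs with an interval that includes 0, to 0.20. At 500 to 2000 UMIs, on 7, 12 and 18 dividing cells, it was -0.58 (-0.82 to -0.34), -0.09 (-0.25 to 0.06) and 0.27 (0.16 to 0.39).

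Isoforms known from other tissues were rare. Cox6a2, Cox7a1 and Cox8b replace Cox6a1, Cox7a2 and Cox8a in heart and skeletal muscle, and together they held 1050, 896 and 765 UMIs in macrophages, or 55.7, 51.3 and 36.7 CPM. In endothelial cells they held 131, 72.3 and 72.8 CPM on 28, 19 and 53 UMIs, and in Ly6c-high monocytes 5.82, 13.2 and 8.07 CPM. A list of 15 cardiomyocyte genes such as Myh6 and Tnnt2, which none of the gated types should express, was measured beside them: all 15 were detected in macrophages of each library, at 463, 327 and 395 CPM, and it reached 1697, 1066 and 1368 CPM in endothelial cells and 111, 62.8 and 58.7 CPM in Ly6c-high monocytes. From P10-MI_vehicle to P10-MI_SB225002 the isoforms were lower and the list higher in macrophages. Per 100 UMIs of that list, macrophages held 12.0, 15.7 and 9.29 UMIs of the 3 isoforms. The part of free cardiomyocyte RNA in these values was not tested. Cox8b, at 360 nt, was again among the lowest members of P10-MI_SB225002 over P10-MI_vehicle in macrophages, with 157, 144 and 82 UMIs (-1.07, -1.48 to -0.67).

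The remaining isoforms were unevenly spread over the types. Ndufa4l2, a paralog of Ndufa4 known to be induced in hypoxia, held 69, 174 and 125 UMIs in fibroblast-gated cells, or 129, 122 and 103 CPM, and 16, 18 and 18 UMIs, at most 1.03 CPM, in the much larger macrophage class. It was at 0 UMIs in neutrophils and Ly6c-high monocytes. Markers of mural cells, which are also known to express Ndufa4l2, stood at 186, 361 and 1160 CPM in the fibroblast-gated cells, and their part in these values was not tested. Cox4i2, the lung and hypoxia isoform, had 13, 18.2 and 9.08 CPM in fibroblasts and 3.08, 1.60 and 2.25 CPM in macrophages, and Cox6b2, the testis isoform, had 10.6, 12.4 and 8.87 CPM in macrophages (-0.48, -0.78 to -0.20). The common forms Cox4i1, Cox6a1, Cox6b1, Cox7a2, Cox7b, Cox8a and Ndufa4 gave ratios between -0.06 and 0.27 for SB225002 over vehicle in macrophages.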

How the data were processed

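For each library, the authors deposited a table of unnormalized counts (UMIs of each gene in each barcode). The submitters' processing notes name mm10 and Seurat 4.1.0, and the aligner is not given in the sources used here. Library sizes in the tables were 29323567, 32498608 and 34235864 UMIs, and kept cells held 79176968. Counts were summed over the cells of a gated type in each library and scaled to CPM of all their UMIs. Intervals are exact Poisson intervals for sums and exact conditional intervals for ratios. A lineage gate needed at least 4 list genes and 0.1% of UMIs, or 6 genes and 1% for neutrophils. Doublets were kept, without a caller, and cells with markers of 2 lineages went to no type. The ratio step was tested on simulated data. Named genes are the 5 highest and 5 lowest ratios among members with 100 UMIs, the members with most UMIs per complex, catalytic subunits, restricted isoforms and the mt- mRNAs, with further members given where a sentence turns on them. Members, lists and gates were chosen with earlier results of these data known. Alternatives used edgeR 4.0.16 (TMM) and DESeq2 1.42.0 (size factors) as scaling only. Python 3.11.15 and R 4.3.3 were used.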

Additional observations from a re-analysis of the deposited data

Results flagged for a closer look

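The direction of a comparison differed between cell types in 9 cases in which both counting intervals left out 0. None of these differences was tested, because each type has 1 library per group. For the summed nuclear-encoded genes, P10-MI_vehicle over P10-sham_vehicle was -0.04 in macrophages and 0.23 in neutrophils, 0.18 in fibroblasts and 0.30 in B cells. P10-MI_SB225002 over P10-MI_vehicle was 0.06 in macrophages and -0.12 in neutrophils. For all mt- genes, P10-MI_SB225002 over P10-MI_vehicle was -0.34 in macrophages and 0.22 in neutrophils and 0.13 in endothelial cells. For the mt- mRNAs, P10-MI_vehicle over P10-sham_vehicle was -0.18 in macrophages and 0.46 in neutrophils and 0.17 in B cells, and P10-MI_SB225002 over P10-MI_vehicle was 0.10 in macrophages and -0.17 in B cells. The sham library has only 21 neutrophils and 20 B cells.

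A symbol outside the rule carried a strong signal. Ndufb1-ps was left out for its "-ps" but held 34628 UMIs in kept cells, 25343 of them in macrophages, and the tables hold no Ndufb1 without the suffix. It had 462, 575 and 316 CPM in macrophages of the sham, MI_vehicle and SB225002 libraries, with log2 ratios of 0.32 and -0.87, the same order as Atp5k and Ndufa3.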

How the results depend on the processing

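The ratios of the summed macrophage levels kept their sign under every alternative run. The first ratio of the nuclear-encoded genes all but vanished with TMM factors and DESeq2 size factors. For the nuclear-encoded genes, P10-MI_vehicle over P10-sham_vehicle (-0.04) was -0.051 without mt- UMIs in the total, -0.00048 with TMM factors, -0.0055 with DESeq2 size factors, -0.063 with an mt- limit of 5%, -0.035 with none, -0.054 in cells thinned to 1000 UMIs, -0.060 as a mean over cells, -0.035 without shared barcodes, -0.062 in cells with no UMI of the dividing genes, -0.050 with the C1q limit doubled and -0.018 in cells of 4000 to 12000 UMIs. P10-MI_SB225002 over P10-MI_vehicle (0.06) was 0.042 without mt- UMIs, 0.023 without mt- and ribosomal protein UMIs, 0.12 with either set of factors, 0.027 and 0.068 with the 5% limit and none, 0.064 thinned, 0.061 without cells above 20000 UMIs, 0.065 without shared barcodes, 0.039 without dividing genes and 0.096 at 4000 to 12000 UMIs. For all mt- genes the first ratio (-0.16) was -0.17 without mt- UMIs, -0.12 with either set of factors, -0.090 and -0.18 with the 5% limit and none, -0.12 thinned, -0.12 as a mean over cells, -0.15 without deep cells, -0.18 without dividing genes, -0.15 with the C1q limit doubled and -0.19 at 4000 to 12000 UMIs. The second (-0.34) was -0.36, -0.38 without mt- and ribosomal protein UMIs, -0.28 and -0.27 with TMM and DESeq2, -0.17 and -0.46 with the 5% limit and none, -0.29 thinned, -0.27 as a mean over cells, -0.36 without deep cells, -0.28 without dividing genes, -0.33 with the C1q limit doubled and -0.41 at 4000 to 12000 UMIs. The mt- mRNAs ranged from -0.19 to -0.11 and from 0.04 to 0.16.

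Counts moved further. Higher in P10-MI_vehicle over P10-sham_vehicle (1) were 2 with the 5% limit, with none and with the C1q limit doubled, 3 thinned, without shared barcodes, without dividing genes and at 4000 to 12000 UMIs, 4 as a mean over cells, and 0 at 100 or 1000 UMIs per member or less genes of like length. Lower (5) were 12 thinned, 11 without dividing genes, 3 at 1.5-fold or 1000 UMIs and 8 less genes of like length. In P10-MI_SB225002 over P10-MI_vehicle, higher (27) were 17 with the 5% limit, 3 at 1.5-fold and 11 less genes of like length, and lower (8) were 3 at 1.5-fold and 4 at 1000 UMIs. The number of the 6 cell groups with mt- genes above 0 in the first comparison (0) was 2 with the 5% limit, 1 thinned, 1 as a mean over cells and 3 without shared barcodes, and in the second (2) it was 1 with no mt- limit. The cause was not tested.

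Of 446 values of other types and states under alternatives, 18 had the sign opposite to a main value whose interval left out 0. Changes of sign where the main interval includes 0 are not counted here. For mt- genes in the first comparison, Ly6c-high monocytes gave 0.060 with the 5% limit, 0.14 thinned, 0.10 as a mean over cells and 0.86 without shared barcodes, neutrophils 0.26 with the 5% limit, and fibroblasts 0.011 and B cells 0.11 without shared barcodes. In the second, endothelial cells gave -0.089 with no mt- limit. Nuclear-encoded genes in the second gave -0.0097 in Ly6c-high monocytes without mt- and ribosomal protein UMIs and 0.27 in neutrophils without shared barcodes. Ly6c-high monocytes over macrophages of P10-MI_SB225002 gave -0.0011 without mt- and ribosomal protein UMIs and -0.0054 with the 5% limit. Resident-high sham cells gave -0.0088 without mt- and ribosomal protein UMIs, lipid-associated-high cells of P10-MI_SB225002 0.0090 with no mt- limit, 0.032 thinned and 0.0088 as a mean over cells, and MHC class II-high sham cells 0.016 without mt- and ribosomal protein UMIs and 0.10 with the 5% limit.

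The window of 4000 to 12000 UMIs, the comparison with genes of like length and the minimum of 1000 UMIs per member were chosen after seeing the data. With 1 library per group, leaving out a replicate was not possible, and the 12 to 21 cells of some sham types limit their values. No paired analysis was possible because each group has 1 library and no result comes from a test.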
